A study of Homo sapiens with 80 samples.

Results

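The transcripts described here are 10 genes of the endothelial lineage: the transcription factors ETV2 and ERG, the receptors KDR, FLT1 and TEK, the junction and surface genes CDH5, PECAM1, CD34 and PLVAP, and the secreted ESM1. They were listed by name out of 43388 genes in each deposited table, with a proposed order in time from ETV2 and KDR to PLVAP and ESM1. They were chosen with TPM differences between purity classes, days and cell lines of the multi-omic and RNA-only experiments open to view. In the multi-omic experiment the order in time and the difference between classes are therefore given as descriptions, without a test. The purity contrast of the RNA-only experiment was tested in other libraries. Since that experiment was also open to view, its p values lend no independent support. Its low purity WTC11 libraries also come from passage 69, and the labels do not say whether they share a differentiation with the multi-omic wells.

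Endothelial cells line blood vessels and, in the heart, the endocardium. In development they arise from KDR-positive mesoderm, which also gives rise to cardiomyocytes. ETV2 is a short-lived ETS family factor that starts the endothelial programme in that mesoderm, and ERG, a related factor, maintains it in established endothelium. VEGF signals through KDR and FLT1, angiopoietins signal through TEK, and VE-cadherin, encoded by CDH5, holds the cells together.

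The libraries came from human pluripotent stem cells differentiated to cardiomyocytes by adding CHIR99021, which activates WNT signalling, on day 0 and then IWP2, which blocks WNT secretion, with insulin supplied from day 6 or 7 onward. High or low purity refers to the share of cells with cardiac troponin T at day 16, measured by flow cytometry. In the multi-omic experiment, WTC11 induced pluripotent cells were sequenced from poly(A) RNA as 25 high purity wells of passage 52 and 31 low purity wells of passage 69. Each class was a single differentiation sampled every 2 days up to day 10 and then on days 13 and 16. In the RNA-only experiment, total RNA was sequenced from 3 lines, each with 1 high and 1 low purity differentiation and 1 library at each of 4 stages. Those lines were H9, an embryonic stem cell line (passage 58 when high and 55 when low in purity), IMR90-4, an induced line (passages 55 and 75 in that order), and WTC11 (passages 81 and 69). Stage 1 was day 0, stage 2 was day 2 or 3 when IWP2 was added, stage 3 was day 4 or 5 when it was removed, and stage 4 was day 6 or 7 when insulin was added. The earlier day of each pair applied to WTC11 and the later to H9 and IMR90-4. All groups received these agents, with the CHIR99021 dose set for each line.

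Both classes had 4 multi-omic wells up to day 6 and 3 on day 16. Of high purity wells 3 remained for day 8, 1 for day 10 and 2 for day 13, beside 4 low purity wells each. Multi-omic libraries held 6579715 to 18143597 reads and RNA-only libraries 17990882 to 40357968. Purity, passage and differentiation cannot be told apart in the multi-omic experiment, and its errors measure the spread between wells of a differentiation. Levels are in TPM, a share of the library's transcripts corrected for transcript length, and levels of the 2 kits are not set against each other. In bulk RNA, fewer cells of a type and less RNA per cell cannot be told apart.

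Start regions are shown because several members, such as PLVAP and ESM1, had like profiles while KDR went the opposite way late. RefSeq start regions on GRCh38.p14 matched 8 members, and the 250 bases before the start were searched on both strands for CAGGAA and CCGGAA, forms of the ETS core, and for the GATA form AGATAA, the forkhead form GTAAACA and the E-box CACGTG. The regions of PLVAP and ESM1, a surface and a secreted gene that ran together, follow with those of ETV2 and KDR, the proposed start of the order, each read on the strand of its gene. Capitals mark CAGGAA or CCGGAA on either strand, so that TTCCTG is CAGGAA on the other strand. They are PLVAP on the minus strand at chr19:17377343-17377592, ESM1 on the minus strand at chr5:54985594-54985843, ETV2 on the plus strand at chr19:35641495-35641744 and KDR on the minus strand at chr4:55125596-55125845.
PLVAP: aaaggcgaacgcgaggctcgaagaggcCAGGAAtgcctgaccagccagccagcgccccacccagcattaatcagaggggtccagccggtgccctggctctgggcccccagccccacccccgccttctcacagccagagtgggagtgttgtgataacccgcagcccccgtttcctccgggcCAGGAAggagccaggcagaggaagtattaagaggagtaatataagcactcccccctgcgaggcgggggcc
ESM1: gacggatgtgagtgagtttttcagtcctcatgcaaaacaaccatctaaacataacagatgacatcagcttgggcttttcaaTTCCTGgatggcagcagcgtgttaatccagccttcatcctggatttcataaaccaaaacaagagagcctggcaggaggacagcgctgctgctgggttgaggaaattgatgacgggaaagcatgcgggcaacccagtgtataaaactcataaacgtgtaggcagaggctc
ETV2: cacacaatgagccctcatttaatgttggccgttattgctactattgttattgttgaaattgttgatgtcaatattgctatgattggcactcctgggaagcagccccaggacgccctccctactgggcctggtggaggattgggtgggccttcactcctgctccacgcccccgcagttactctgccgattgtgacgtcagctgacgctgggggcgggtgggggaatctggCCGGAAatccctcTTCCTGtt
KDR: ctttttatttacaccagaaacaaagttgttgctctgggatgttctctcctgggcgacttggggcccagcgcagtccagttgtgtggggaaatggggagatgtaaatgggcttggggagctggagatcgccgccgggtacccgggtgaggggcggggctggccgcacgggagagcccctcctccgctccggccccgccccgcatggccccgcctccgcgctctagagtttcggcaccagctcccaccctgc
PLVAP held CAGGAA at 2 places and ESM1 at 1. ETV2 held both letter strings at 1 place each, and KDR held neither. Of the 35116 start regions in the table, 24.1% held CAGGAA and 14.5% held CCGGAA. The windows of KDR, CD34 and FLT1 held none of the 5 strings. TEK held CAGGAA and AGATAA at 1 of its 2 listed starts and none at the other, and ERG held both at 2 of its 4 listed starts, whose windows overlap. These matches describe letters, not bound sites.

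ETV2 (chromosome 19, 35641745 to 35644871, GRCh38 as for all positions here) did not form a clear wave in the multi-omic wells. Its highest day was day 4, at 2.19, 3.12, 2.99 and 1.74 TPM in high purity wells and at 1.61, 0.426, 2.41 and 1.3 TPM in low purity wells. The wells of the classes overlapped on each of the 7 compared days, and no group mean reached 5 TPM. At most 34 reads lay on ETV2 in a library, so its level is known only coarsely.

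ERG (chromosome 21, 38367261 to 38661783) had both an early and a late phase. On day 0 it was at 5.66, 4.99, 4.92 and 5.62 TPM in high and 4.18, 4.96, 4.4 and 4.13 TPM in low purity cells, overlapping levels in undifferentiated cultures. By day 4 every well was at or under 0.0974 TPM. On day 6 high purity wells were at 4.52, 6.92, 4.54 and 5.28 TPM and low purity wells at 0.604, 0.38, 0.415 and 0.0533 TPM. All high purity wells lay above all low purity wells, a log2 fold change of 2.13 ± 0.13 (SE) for high minus low, taken here as everywhere in this experiment on log2(TPM + 1), which understates the change of low genes. On day 8 the difference was 2.18 ± 0.14 (SE), and by day 16 the wells overlapped again at means of 0.771 and 0.368 TPM. A pair of overlapping annotated genes reached at most 1.44 TPM, and whether counting used the strand is not given in the sources used here.

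**Figure D1:**
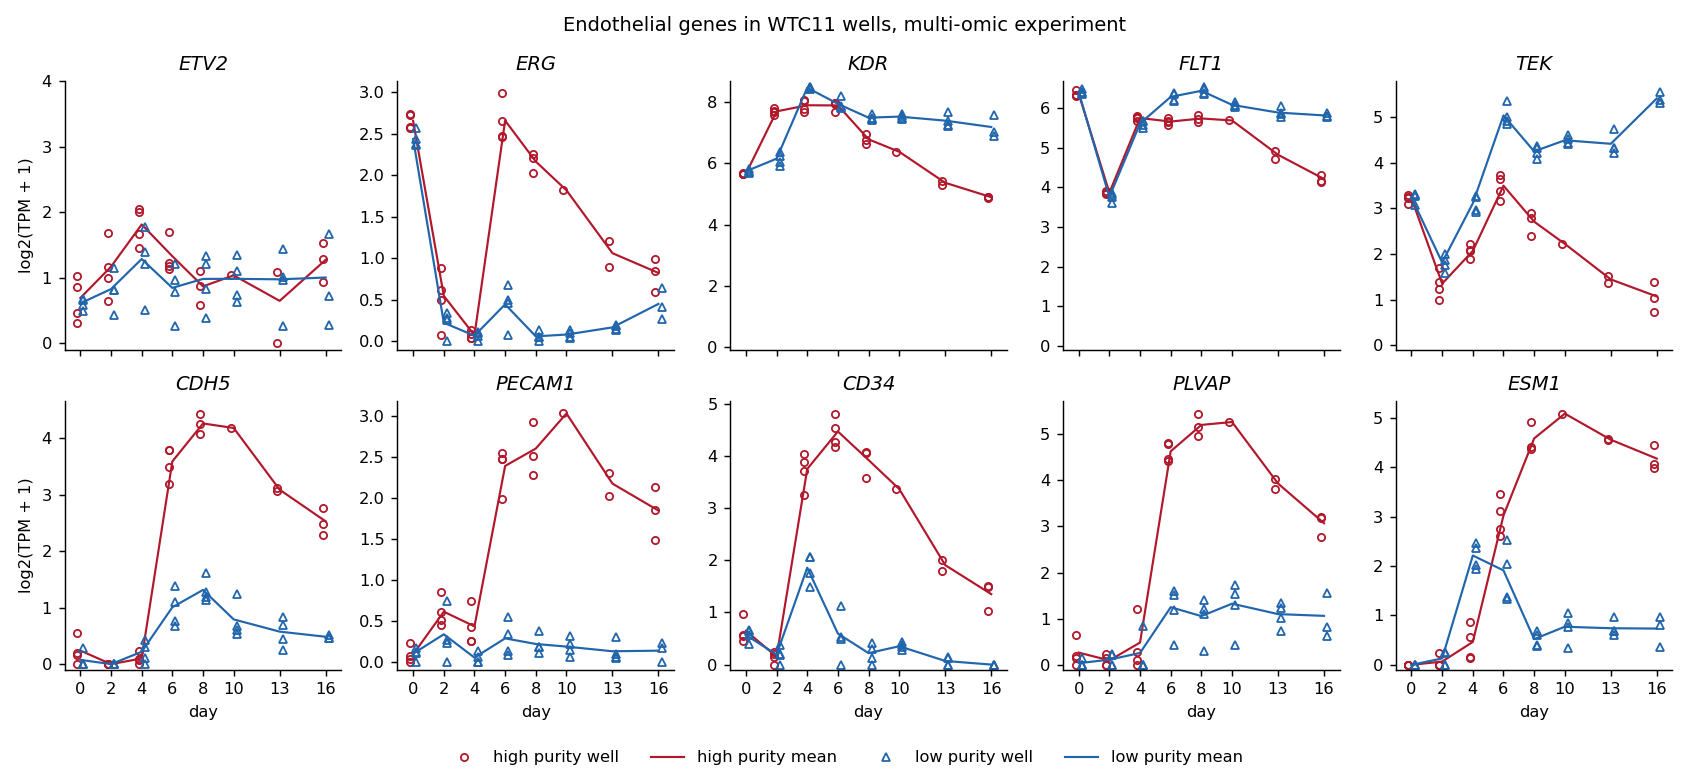
Level of each of the 10 genes, as log2(TPM + 1), against day in the multi-omic experiment, with a red circle for each high purity well, a blue triangle for each low purity well and lines through the means. The 5 junction, surface and secreted genes in the lower panels lie above the low purity wells in the high purity line from day 6 to day 16, with CD34, CDH5, PECAM1 and PLVAP lower on day 16 than on day 8, whereas KDR, FLT1 and TEK end higher in low purity wells.

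KDR (chromosome 4, 55078481 to 55125595), the main VEGF receptor, was present before differentiation and was the most abundant member on every later day. On day 0 it was at 48.8 to 50.9 TPM for high and 50.7 to 55.8 TPM for low purity wells. On day 2 high purity wells were at 193, 226, 208 and 204 TPM and low purity wells at 59.9, 75.5, 81.2 and 64.8 TPM. The log2 fold change was 1.62 ± 0.10 (SE), and those of the 9 other members on that day were under 1 in size.

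On day 4 the order of the classes was the opposite, with KDR at 264, 203, 221 and 266 TPM for high and 353, 358, 365 and 348 TPM for low purity wells, a log2 fold change of -0.58 ± 0.10 (SE). The highest mean after day 0 fell on day 4 in both classes. Day 6 wells overlapped, at means of 237 and 246 TPM. Thereafter KDR was lower in high purity cells. On day 16 it was at 28.4, 29.1 and 28.8 TPM against 189, 117 and 130 TPM, a log2 fold change of -2.06 ± 0.12 (SE) with no overlap.

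FLT1 (chromosome 13, 28300346 to 28495128), a VEGF receptor that also acts as a decoy, was the most abundant member on day 0, at 78.4 to 87.1 TPM for high and 80.4 to 88.1 TPM for low purity wells. It was at 11.1 to 14 TPM in all wells on day 2 and at means of 52.8 and 47.9 TPM on day 4, with overlapping classes on both days. On day 8 low purity wells lay above high purity wells, at 91.9, 82.8, 80.4 and 87.8 TPM against 51.7, 56.2 and 49.4 TPM. By day 16 it was at 17, 18.9 and 16.7 TPM for high and 58.1, 53.6 and 54.4 TPM for low purity wells, a log2 fold change of -1.40 ± 0.06 (SE).

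TEK (chromosome 9, 27109225 to 27230174), the angiopoietin receptor, showed the largest excess in low purity cells. Day 0 levels overlapped at 7.6 to 8.85 and 7.44 to 8.91 TPM. On day 4 it was at 3.18, 2.73, 3.64 and 3.24 TPM for high and 6.55, 8.72, 8.49 and 6.84 TPM for low purity wells, and on day 6 at 9.4, 11.5, 12.4 and 7.97 against 31, 29.2, 27.7 and 39.9 TPM.

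The TEK gap was widest on the last 2 sampled days. On day 13 the levels were 1.59 and 1.85 against 25.7, 19.2, 19 and 17.7 TPM. On day 16 they were 0.645, 1.61 and 1.04 against 46, 38.5 and 40.5 TPM, a 37.9-fold ratio of means and a log2 fold change of -4.30 ± 0.15 (SE). From day 4 onward no high purity well reached a low purity well of the same day.

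The genes of mural, stromal and epicardial cells were higher in the same wells as TEK, KDR and FLT1. On day 16, 6 of 8 mural and stromal genes and 4 of 4 epicardial genes were called higher in low purity wells, beside 7.65% of all genes. A call means a limma adjusted p under 0.05 and a log2 fold change of at least 1 in size. None of either list was called higher in high purity wells, beside 5.76% of all genes. The summed level of the mural and stromal list was 498 to 592 TPM for high and 9170 to 12300 TPM for low purity wells. That of the epicardial list was 9.02 to 11.4 and 219 to 299 TPM. None of these defining genes was at 0 in the mean of either class. Their part in the receptor levels was not tested.

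CD34 (chromosome 1, 207880972 to 207911125), a surface sialomucin of endothelial and blood progenitors, was the earliest of the late genes. On day 4 it was at 12.1, 13.9, 15.4 and 8.61 TPM for high and 2.36, 3.16, 3.2 and 1.8 TPM for low purity wells. Its peak in high purity cells was on day 6, at 18.4, 22.2, 27.2 and 17.1 TPM, when low purity wells were at 0.413, 1.19, 0 and 0.437 TPM. The log2 fold change was 1.88 ± 0.16 (SE) on day 4 and 3.82 ± 0.16 (SE) on day 6, with no overlap on either day.

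CD34 then declined in high purity cells while staying above the low purity wells. On day 16 it was at 1.8, 1.83 and 1.03 TPM in high purity wells and at 0 in all 3 low purity wells. Against a floor of 3 reads per library the high purity mean was at least 5.95-fold higher.

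CDH5 (chromosome 16, 66366691 to 66404784) and PECAM1 (chromosome 17, 64319415 to 64390860), the adhesion molecules of endothelial junctions, appeared between day 4 and day 6. CDH5 had no read in any well on day 2. On day 6 it was at 10.2, 12.8, 8.16 and 12.9 TPM for high and 1.13, 1.62, 0.689 and 0.596 TPM for low purity wells, and on day 8 at 20.6, 18 and 15.8 against 1.2, 2.06, 1.27 and 1.41 TPM. The day 8 log2 fold change was 3.12 ± 0.16 (SE). An overlapping annotated gene reached at most 2.24 TPM.

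PECAM1 followed CDH5 at a lower level. On day 8 it was at 6.64, 4.72 and 3.87 TPM for high and 0.134, 0.299, 0.136 and 0.0753 TPM for low purity wells, a log2 fold change of 2.46 ± 0.15 (SE). The single high purity well of day 10 held its highest level, 7.18 TPM. In low purity wells PECAM1 never passed 0.67 TPM.

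PLVAP (chromosome 19, 17351455 to 17377342), which forms the diaphragms of fenestrae and caveolae, had the largest difference of the 10 on day 8 on the log2(TPM + 1) scale, within the standard errors of that of ESM1. By the ratio of mean TPM, CD34, ERG and ESM1 were ahead of it. PLVAP was at or under 1.31 TPM in every well up to day 4. On day 6 it was at 20.8, 20.3, 26.5 and 26.9 TPM for high and 2.03, 1.28, 1.86 and 0.358 TPM for low purity wells. Day 8 levels were 42.3, 34.5 and 29.9 TPM against 1.15, 1.64, 1.31 and 0.242 TPM, a log2 fold change of 4.33 ± 0.27 (SE).

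PLVAP stayed high on day 10, at 37.2 TPM in the lone high purity well, and was at 5.86, 8.18 and 8.11 TPM on day 16. Low purity wells of day 16 were at 0.777, 1.96 and 0.542 TPM, so the classes still did not overlap.

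ESM1 (chromosome 5, 54977867 to 54985593), a secreted proteoglycan made by sprouting tip cells, differed from the other late genes in starting earlier in low purity cells. No well had a read on day 0. On day 4 it was at 0.0941, 0.472, 0.118 and 0.833 TPM for high and 4.52, 3.07, 4.13 and 2.82 TPM for low purity wells, a log2 fold change of -1.72 ± 0.18 (SE). On day 6 the direction was the opposite, at 7.66, 5.73, 10 and 5.11 against 4.8, 1.59, 1.52 and 3.13 TPM, and the log2 fold change was 1.13 ± 0.18 (SE). The classes overlapped on neither day.

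ESM1 was also the most persistent late gene in high purity cells. Day 8 levels were 29, 19.7 and 20.1 TPM against 0.314, 0.299, 0.597 and 0.529 TPM. On day 16 it was still at 14.7, 20.7 and 15.7 TPM against 0.283, 0.966 and 0.74 TPM, a log2 fold change of 3.71 ± 0.21 (SE). By then PLVAP, CDH5, PECAM1, CD34 and ERG all had lower means than ESM1 in high purity wells.

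**Figure D2:**
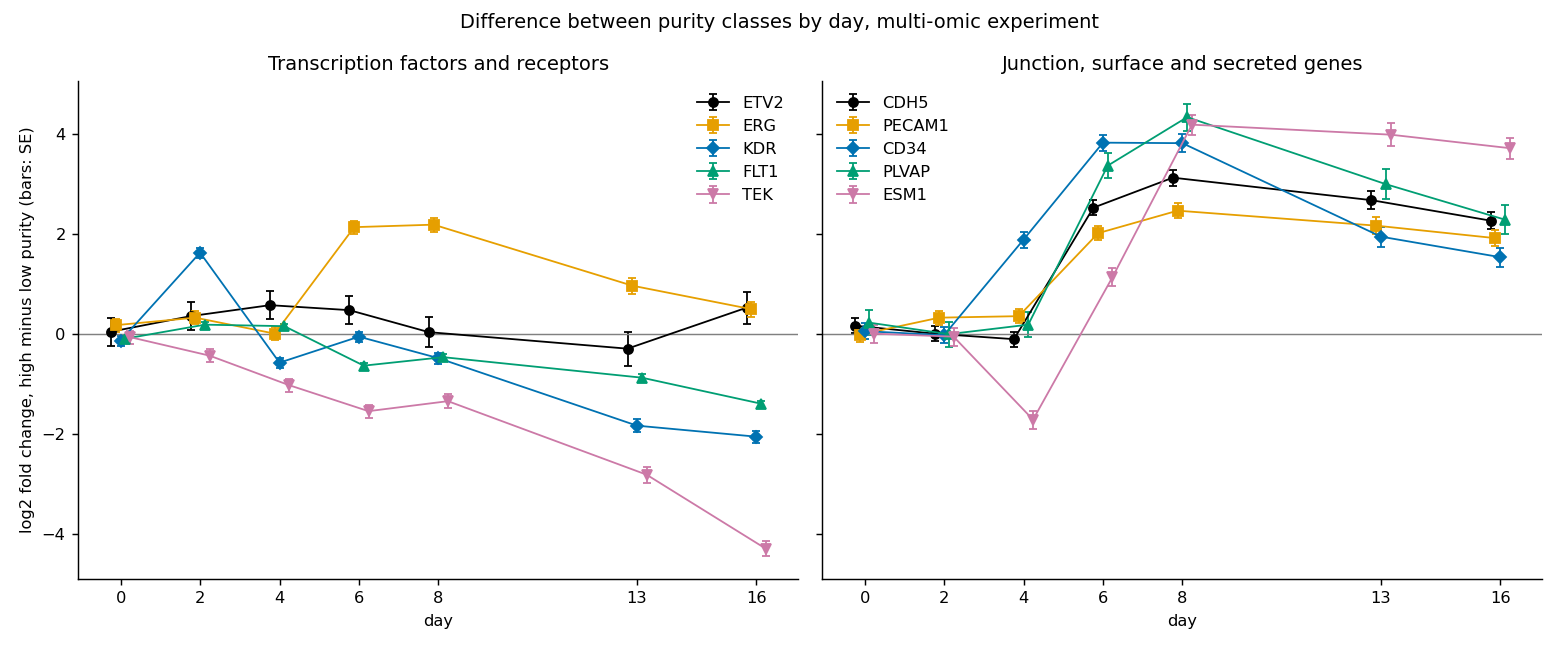
Log2 fold change on the log2(TPM + 1) scale, high minus low purity, against day for the 5 transcription factor and receptor genes (left) and the 5 junction, surface and secreted genes (right), with standard errors as bars and day 10 left out because it had 1 high purity well. TEK runs down to -4.30 on day 16, while PLVAP peaks at 4.33 on day 8 and ESM1 passes from -1.72 on day 4 to 4.18 on day 8.

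The proposed order from ETV2 and KDR to PLVAP and ESM1 was met only in part. Taking the first sampled day with a mean of at least 5 TPM, KDR, FLT1, TEK and ERG were past it on day 0 in high purity cells. That day was before differentiation. TEK then fell to 1.55 TPM on day 2 and ERG to 0.0533 TPM on day 4. Both passed 5 TPM again only on day 6, at 10.3 and 5.31 TPM. Of the other members, CD34 reached 5 TPM on day 4, CDH5, PLVAP and ESM1 on day 6, and PECAM1 on day 8, while ETV2 never reached it. With 1 TPM in place of 5, PECAM1 came on day 6 with CDH5, PLVAP and ESM1, and with 10 TPM ESM1 came on day 8. PECAM1 moved to day 10 when the first high purity well of day 8 was left out. In low purity cells only KDR, FLT1 and TEK reached 5 TPM, all on day 0, and TEK was at 2.52 TPM on day 2 and 7.65 TPM on day 4.

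Among the members on day 8, the order of levels in high purity cells was KDR, FLT1, PLVAP, ESM1, CDH5, CD34, TEK, PECAM1, ERG and ETV2. The well ranges of ESM1 and CDH5, of CDH5 and CD34, and of TEK and PECAM1 overlapped, and the other neighbours did not. In low purity cells KDR at 180 TPM, FLT1 at 85.7 TPM and TEK at 18.1 TPM stood apart, and the 7 others lay between 0.0436 and 1.48 TPM, each overlapping its neighbour in that order.

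By the same thresholds members were called too, and since these contrasts were in view when the members were chosen, nothing is read from their number. On day 0, 0 of 10 members were called, beside 0.242% of the 25664 genes tested that were higher in high and 0.826% that were higher in low purity wells. On day 2, 1 was called higher in high purity wells (2.25% of all genes). On day 4, 1 was called higher in high (3.62%) and 2 in low purity wells (4.22%). On day 6 these numbers were 6 (3.61%) and 1 (5.19%), and on day 8 they were 6 (4.66%) and 1 (7.5%). On day 13, 5 were called higher in high (4.55%) and 2 in low (6.23%), and on day 16 they were 5 (5.76%) and 3 (7.65%).

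The profiles of CDH5, PECAM1, PLVAP and ESM1 across the 16 groups of class and day were close to each other. Pearson's r of log2 group means was 0.99 for CDH5 and PLVAP, 0.96 for CDH5 and PECAM1 and 0.92 for PLVAP and ESM1. CD34, which came earlier, was at 0.71 with CDH5, 0.72 with PLVAP and 0.66 with ESM1. KDR correlated with CDH5 at -0.26 and ETV2 with PLVAP at 0.10, while TEK and FLT1 reached 0.70. These groups share a cell line, 2 differentiations and the sampling days, so the values only describe the profiles. Over the 24 RNA-only libraries CDH5 and PLVAP were at 0.95 and TEK and FLT1 at 0.11.

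The genes outside the set with profiles most like CDH5 were CD93, ESAM and GNG11, at r of 0.977, 0.967 and 0.952 over the 16 groups and 0.884, 0.888 and 0.563 over the 24 RNA-only libraries. The same 3 genes were the most like PLVAP. For KDR they were SLC4A2, MED13 and ZNF468, at 0.938, 0.909 and 0.892, but over the RNA-only libraries these were at -0.599, -0.068 and -0.176. For ETV2 they were COG4, ARID3C and NFKBIA, at 0.834, 0.813 and 0.795, with RNA-only values of -0.21, 0.685 and 0.599.

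Beyond the members, 57 other genes of the endothelial pathway were followed, of which 52 were tested. Few were called on the first days, given here with the share of all genes called in the same direction. On day 0, 1 of 52 was called, higher in high purity wells (0.242%). On day 2, 5 were called higher in high (2.25%) and 1 in low purity wells (3.07%), and on day 4, 6 (3.62%) and 4 (4.22%). On day 6, 28 were called higher in high (3.61%) and 3 in low purity wells (5.19%). The median log2 fold change was 1.01 beside 0.00 for all genes. On day 8 these were 30 (4.66%) and 2 (7.5%), with a median of 1.21 beside -0.03. On days 13 and 16, 19 were called higher in high purity wells on each day (4.55% and 5.76%). Called higher in low purity wells were 4 (6.23%) and 5 (7.65%). The list was drawn up with results of these libraries known, and several genes named below were picked by the size of their difference there. Their limma adjusted p values are measured against the spread between wells of 1 differentiation per class. They are given as descriptions and lend no independent support.

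**Figure D3:**
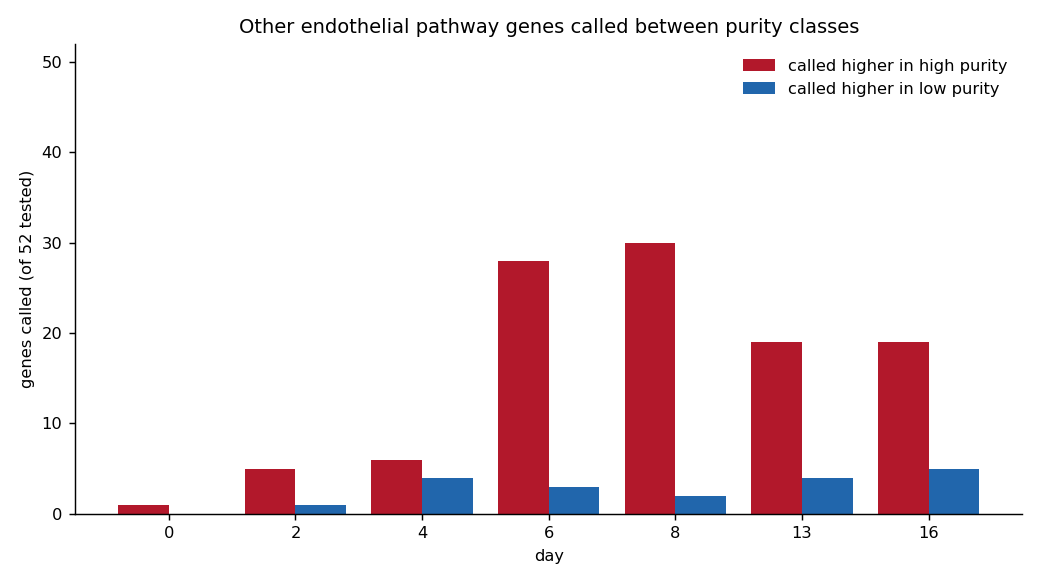
Number of the 52 tested endothelial pathway genes outside the set that limma called higher in high purity wells (red) or in low purity wells (blue) on each compared day. The red bars reach 28 on day 6 and 30 on day 8, and the blue bars never pass 5. Of all genes, 3.61% and 4.66% were called higher in high purity wells on days 6 and 8.

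Among the transcription factors of this list, 9 of 16 were called higher in high purity wells on day 6 (3.61% of all genes) and again on day 8 (4.66%). On both days 0 were called lower. TAL1, a factor of early blood and endothelial progenitors, was at 6.28 ± 0.34 TPM for high (SD, n = 4) and 0.236 ± 0.128 TPM for low purity wells (SD, n = 4) on day 6, with a limma adjusted p of 1.22e-26. LMO2, which binds TAL1, reached 17.3 ± 1.11 TPM (SD, n = 3) on day 8 against 2.97 ± 0.563 TPM (SD, n = 4), and its limma adjusted p was 4.77e-13. SOX7 and SOX17, SOXF factors of endothelium, differed by 3.07 and 2.60 on the log2 scale on day 6, with limma adjusted p of 7.74e-15 and 7.17e-16.

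HHEX, a homeobox factor of endothelium and endoderm, was already called on day 2, at 28.3 ± 5.46 against 9.98 ± 1.86 TPM (SD, n = 4 each), with a limma adjusted p of 2.32e-05. ETS1, an ETS factor shared by endothelial and stromal cells, went the other way late, at 7.17 ± 1.28 TPM for high and 60.5 ± 6.36 TPM for low purity wells on day 16 (SD, n = 3 each), and the limma adjusted p was 7.86e-25.

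Receptors and ligands of the list split. TIE1, the partner receptor of TEK, sided with the late genes, at 6.5 ± 1.39 TPM for high (SD, n = 3) and 0.484 ± 0.1 TPM for low purity wells (SD, n = 4) on day 8, with a log2 fold change of 2.45 and a limma adjusted p of 8.23e-18. NRP1, the VEGF co-receptor, was lower in high purity wells on day 4, at 58.4 ± 7.46 against 203 ± 17.1 TPM (SD, n = 4 each), and higher on day 16, at 156 ± 11.8 against 64.3 ± 6.45 TPM (SD, n = 3 each), with limma adjusted p of 1.22e-17 and 2.11e-13. EFNB2, an arterial ephrin, was called lower in high purity wells from day 4 on, with a log2 fold change of -2.03 on day 6 and a limma adjusted p of 2.62e-19.

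VEGFA, the ligand of KDR and FLT1, was at 226 ± 62.3 TPM for high and 58.4 ± 12.1 TPM for low purity wells on day 2 (SD, n = 4 each), the day on which KDR was also higher in the former, and its limma adjusted p was 1.18e-16. It was called higher in high purity wells again on each compared day from day 6, at 503 ± 38.5 against 203 ± 34.4 TPM on day 16 (SD, n = 3 each) with a limma adjusted p of 4.77e-12. ANGPT1, the ligand of TEK, was higher in high purity wells on day 16, when TEK was lower, at 55.8 ± 5.55 against 7.54 ± 0.59 TPM (SD, n = 3 each), and the limma adjusted p was 1.55e-18. In the RNA-only experiment ANGPT1, like TEK, was lower in the high purity library of 3 of 3 lines at stages 2 and 3. Of all genes, 11.9% and 7.25% were so. The edgeR adjusted p of ANGPT1 was 0.694 and 0.73. At stage 4 ANGPT1 was higher in the high purity library of 2 of 3 lines. VEGFC, a lymphatic growth factor, was lower in high purity wells on day 16, by a log2 fold change of -1.26 with a limma adjusted p of 8.17e-07.

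Of the surface genes, ECSCR and CD93 had the largest excess in high purity wells on day 8, with log2 fold changes of 3.96 and 3.23 and limma adjusted p of 5.01e-18 and 1.75e-24. VWF, the clotting factor carrier made by endothelium, peaked earlier than the other late genes, at 38.4 ± 5.83 against 7.38 ± 1.02 TPM on day 4 (SD, n = 4 each), where GJA5 was called too, at log2 fold changes of 2.23 and 1.76 and limma adjusted p of 4.38e-19 and 7.96e-11. APLN was the only gene of the list called on day 0, at 2.56 ± 0.449 against 0.689 ± 0.457 TPM (SD, n = 4 each) with a limma adjusted p of 3.79e-05, and this call was lost when the fourth low purity well was left out. THBD, thrombomodulin, was lower in high purity wells on day 16, by -3.73 with a limma adjusted p of 2.7e-18. CLDN5, a tight junction gene of endothelium, stayed under 1 TPM in the mean of every group and was not called on any day.

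Blood cells share several of these genes. Of 12 blood genes, 7 passed the filter on low values. Called higher in high purity wells was 1 each on days 2 (MYB), 4 (ITGA2B), 6 (HBE1) and 16 (ITGA2B). Of all genes, 2.25%, 3.62%, 3.61% and 5.76% were called so on those days. RUNX1 was called higher in low purity wells on day 16, as were 7.65% of all genes. On day 6, when most late genes appeared, the call was HBE1, an embryonic globin, at 4.29 ± 3.23 against 1.27 ± 0.575 TPM (SD, n = 4 each) with overlapping wells, and the summed level of the list was 9.34 to 18.7 TPM in high and 6.38 to 8.18 TPM in low purity cells. The blood marker PTPRC did not pass 0.3 TPM in any multi-omic library, nor GFI1 0.453 TPM. These genes are named because they make up those counts or define the cells, after their values were seen.

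Cardiomyocyte genes differed from CD34 in their timing, but less so from ESM1. On day 4 ESM1 too was lower in high purity wells, by a log2 fold change of -1.72. The day 4 means of CDH5, PECAM1 and PLVAP were under 1 TPM in both classes. On day 4, when CD34 was already higher in high purity wells, 6 of 8 were called higher in low purity wells (4.22% of all genes). The list summed to 135 to 202 TPM for high and 1610 to 1840 TPM for low purity wells. On day 6, 2 were called higher in high (3.61%) and 1 in low purity wells (5.19%). On day 8, 7 were called higher in high purity wells (4.66%), at a summed 11600 to 13600 TPM against 3970 to 6240 TPM. On day 16 the sum in high purity wells was still 11500 to 13600 TPM, when PLVAP, CDH5 and CD34 were at means of 7.38, 4.76 and 1.55 TPM. ESM1 was then still at a mean of 17.0 TPM in those wells. The part of blood and cardiomyocyte cells in the late gene levels was not tested.

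Late genes were also mostly higher at stage 4 than at stage 3 in the RNA-only experiment, but not in step with purity. Going from stage 3 to stage 4, CDH5 and PLVAP were higher in 6 of 6 differentiations and PECAM1, CD34 and ESM1 in 5 of 6. The share of all genes with such rises was not computed, so nothing is read from these counts. PECAM1 was at only 0.00823 to 0.52 TPM at stage 4. At stage 4 CDH5 was at 1.73, 1.49 and 1.07 TPM in high purity H9, IMR90-4 and WTC11 and at 0.969, 4.06 and 1.52 TPM in the low purity libraries of the same lines. PLVAP was at 1.47, 2.03 and 1.25 TPM against 0.449, 3.79 and 1.51 TPM.

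In both genes the low purity IMR90-4 library was the highest of the 6 and the low purity H9 library the lowest. CD34 and ESM1 had the same extremes, at 2.92 and 2.95 TPM in low purity IMR90-4 and at 0 in low purity H9. That H9 library also had the least cardiomyocyte RNA of the stage, a summed 349 TPM against 1090 to 4790 TPM in the others, and the most mural and stromal RNA, 1460 TPM against 138 to 322 TPM. Its blood genes summed to 46.5 TPM there and to 70 TPM at stage 3, where the other libraries had 10.5 to 22.6 TPM. Of that 70 TPM, 61.9 TPM was the globin HBE1 alone. The part of these lists in the late gene levels was not tested. The log2 fold change over the lines was -0.40 ± 0.67 (SE) for CDH5 and 0.09 ± 0.68 (SE) for PLVAP, with edgeR adjusted p of 0.856 and 0.977.

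**Figure D4:**
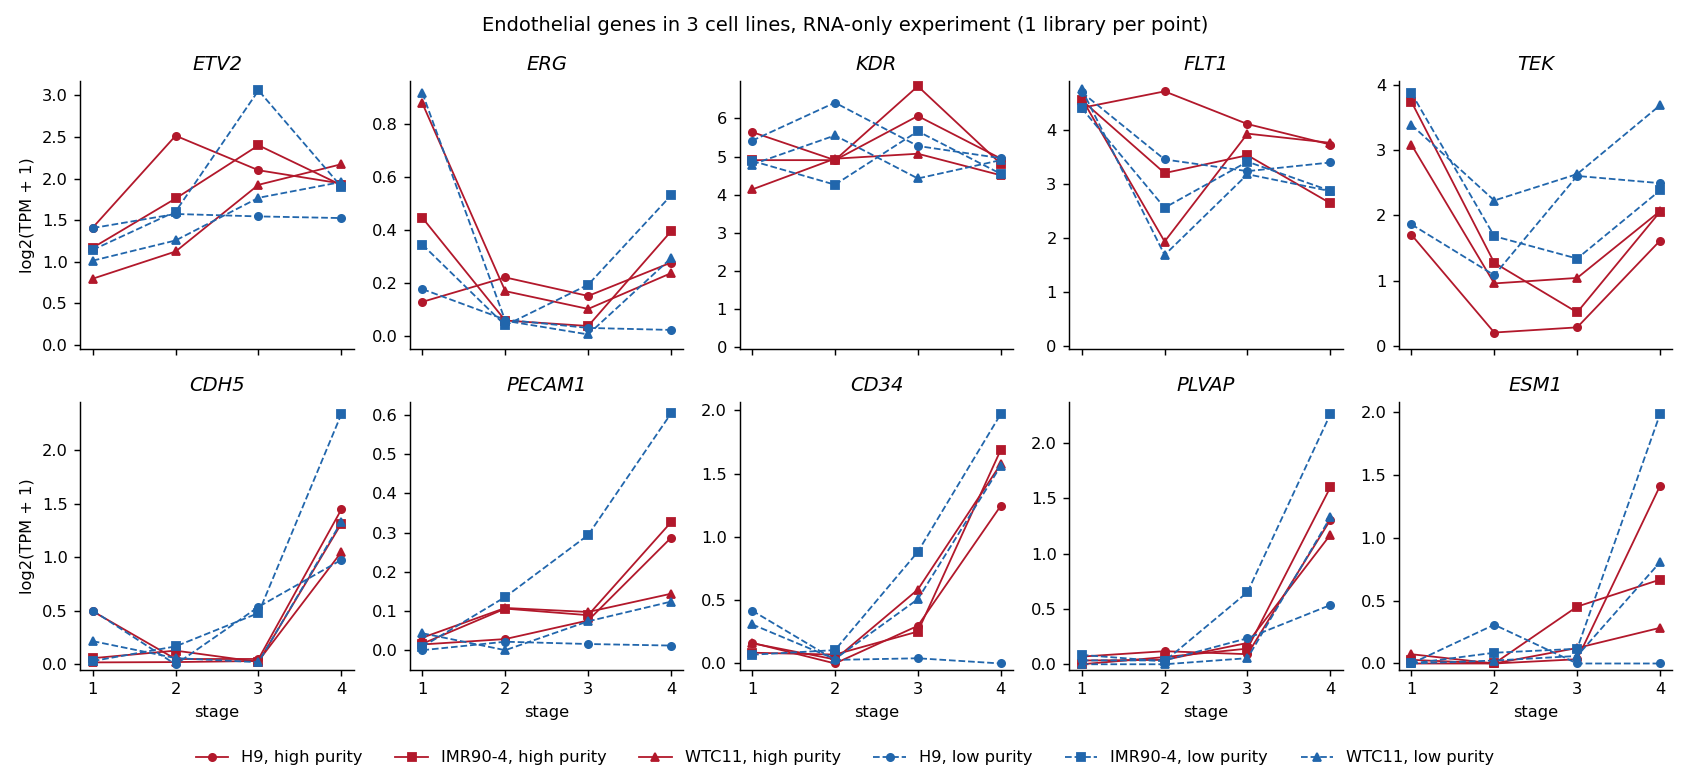
Level of each of the 10 genes, as log2(TPM + 1), at the 4 stages of the RNA-only experiment, with 1 library per point, solid red lines for high and dashed blue lines for low purity differentiations and a marker shape for each line. CDH5 and PLVAP are higher at stage 4 than at stage 3 in all 6 differentiations, a pattern whose share among all genes was not computed. The red TEK points lie under the blue ones of the same line at every stage.

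TEK was lower in the high purity library of all 3 lines at each of the 4 stages, as were 10.2%, 11.9%, 7.25% and 16.2% of all genes at stages 1 to 4 taken singly. At stage 3 it was at 0.218, 0.429 and 1.06 TPM in high purity H9, IMR90-4 and WTC11 and at 5.09, 1.53 and 5.21 TPM in the low purity libraries, so the classes did not overlap. The log2 fold change was -2.92 ± 0.52 (SE), with an unadjusted p of 0.000155 and an adjusted p of 0.477 in edgeR's quasi-likelihood test over 23848 genes. It did not pass the threshold there. DESeq2 called it at stage 2 with an adjusted p of 0.03 and at stage 3 with 9.79e-06, and edgeR called it at stage 3 when H9 was left out, with an adjusted p of 0.0463, as it did 0.529% of all genes. Stage 2 and stage 4 gave log2 fold changes of -1.77 ± 0.51 and -1.18 ± 0.48 (SE), with edgeR adjusted p of 0.46 and 0.37.

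No member was called by edgeR at any stage, nor was any of the genes tested (0%). At an unadjusted p under 0.05, 0 members passed at stage 1, 2 at stage 2, 3 at stage 3 and 1 at stage 4, beside 1.48%, 7.95%, 7.54% and 12.1% of all genes. The members with an unadjusted edgeR p under 0.05 were TEK at stages 2 to 4, FLT1 at stage 2, and KDR and CDH5 at stage 3. FLT1 was higher in high purity libraries by 0.78 ± 0.25 (SE) with an edgeR adjusted p of 0.524. DESeq2 called 1 member, TEK, at stages 2 and 3 and none at stages 1 and 4, where it called 0% (stage 1), 0.207% (stage 2), 0.148% (stage 3) and 0.548% (stage 4) of all genes it fitted.

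KDR at stage 3 was at 65.9, 114 and 32.7 TPM in high and 37.8, 49.7 and 20.5 TPM in low purity H9, IMR90-4 and WTC11, higher in the high purity library of 3 of 3 lines, as were 21.5% of all genes. The log2 fold change was 0.77 ± 0.33 (SE) with an edgeR adjusted p of 0.638. At stage 2 its order differed between lines, at 29, 29 and 29.8 TPM in high and 84.3, 18.2 and 46 TPM in low purity libraries. The excess of KDR in high purity wells on day 2 of the multi-omic experiment was thus not seen in the WTC11 libraries of that day here, which came from passages 81 and 69, and the difference between the experiments was not tested. CDH5 at stage 3 was at 0.0361, 0.0163 and 0.0227 TPM in high and 0.452, 0.395 and 0.0144 TPM in low purity libraries of the same lines, higher in the low purity library of H9 and IMR90-4 and not of WTC11. Its fitted log2 fold change of -3.35 ± 0.99 (SE), with an edgeR adjusted p of 0.521, had the opposite sign to its multi-omic difference on days 6 to 16 and rested on 2 to 46 reads per library.

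ETV2 was better covered in the RNA-only experiment, with 29 to 448 reads per library. It was higher at stage 2 than at stage 1 in 6 of 6 differentiations, a pattern whose share among all genes was not computed. Its highest level, 7.34 TPM, was at stage 3 of low purity IMR90-4, the differentiation with the highest late genes at stage 4. By line, stage 3 levels were 3.29, 4.28 and 2.8 TPM in high and 1.92, 7.34 and 2.41 TPM in low purity H9, IMR90-4 and WTC11. The log2 fold change was -0.06 ± 0.33 (SE), with an edgeR adjusted p of 0.987. ERG did not pass 0.885 TPM in any of the 24 libraries.

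The other pathway genes were followed in this experiment too. Of 54 tested, 0 were called by edgeR at any stage, as of all genes. An unadjusted edgeR p under 0.05 was found for 0, 8, 5 and 6 at stages 1 to 4, beside 1.48%, 7.95%, 7.54% and 12.1% of all genes. Nothing is read from these counts. DESeq2 called 1 at stage 3 (0.148% of all genes) and 3 at stage 4 (0.548%). It called 0 at stages 1 and 2, beside 0% and 0.207% of all genes. PROX1, which specifies lymphatic endothelium and is also made by cardiomyocytes, was called by DESeq2 at both, with log2 fold changes of 1.74 and 1.75, and GATA2 and ETS1 at stage 4, with 1.5 and -2.00. These 3 genes make up that count and were named after their values were seen. ETS1 was lower in high purity libraries of 3 of 3 lines at stage 4, as were 16.2% of all genes. It was at 2.95, 2.49 and 3 TPM in high and 40.2, 6.98 and 5.32 TPM in low purity H9, IMR90-4 and WTC11. The gap was widest in H9, and the edgeR adjusted p was 0.249. In the multi-omic experiment ETS1 was called lower in high purity wells on days 13 and 16, which are later than stage 4. On days 6 and 8, nearest to stage 4, it was not called lower there. PROX1 and GATA2 are not set against the multi-omic wells here.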

How the data were processed

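Aligned reads were counted per gene by the authors with STAR 2.5.3a and featureCounts 2.0.3 on hg38, per the submitters' processing notes. The authors deposited, for each experiment, a table of whole-number read counts and a table of TPM. How TPM was computed and the annotation release are not given in the sources used here. The RNA-only count columns matched the TPM columns of the same name for 24 of 24 libraries. The multi-omic count columns did so for 0 of 56: 50 held the reads of another TPM column and 6 of none. Multi-omic comparisons therefore used the deposited TPM, and depth is the reads recovered from TPM, whole for 100% of nonzero values in 37194 genes within a tolerance of 0.05 reads or 1e-4 of the reads, whichever was larger. Left out were 6 genes whose lines were broken in the RNA-only counts.

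Multi-omic TPM values were scaled with TMM (edgeR 4.0.16) and modelled as log2(TPM + 1) with limma 3.58.1 (trend) in R 4.3.3 for the 25664 genes that reached 1 TPM in 3 or more libraries, with 16 group means and 40 residual degrees of freedom. RNA-only counts of 23848 genes passing filterByExpr were fitted with edgeR's quasi-likelihood method, with a mean for each of 12 combinations of line and stage and a purity term per stage. Calls needed a Benjamini-Hochberg adjusted p under 0.05 over all genes tested and a log2 fold change of at least 1. DESeq2 1.42.0 was an alternative. Both fits were tested on simulated data. The labels give well numbers in the multi-omic experiment. Over 24 pairs of same-numbered wells the deviations from group means correlated at -0.0177 to 0.0319, so the numbers do not pair the wells. No 2 wells of a group agreed within sampling noise, the lowest chi-square per gene being 1.59.

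The members, lists and tests were chosen with earlier results of these data known. Named besides the members were, per day, the 2 called pathway genes with the largest log2 fold change in each direction, TAL1, LMO2, SOX17, TIE1, CLDN5, VEGFA and VEGFC, and the 3 genes most like ETV2, KDR, CDH5 and PLVAP among those with a highest group mean of at least 5 TPM. Alternatives changed the pseudocount, scaling, filter, block, tool, fold threshold and wells or lines used. Gene positions and start regions are RefSeq's on GRCh38.p14. One result on the blood genes is not reported here.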

Additional observations from a re-analysis of the deposited data

Results flagged for a closer look

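Within groups of 4 wells, 5 of 55 combinations of gene and group had a well far from the others, where chance gives about 1 in 20. ETV2 on day 6 was at 2.25 TPM in the fourth high purity well, and the other wells were at 1.2 to 1.33 TPM. KDR in that same well was at 205 TPM, below 246 to 251 TPM in the others, and in the fourth low purity well of day 6 it was at 296 TPM, above 224 to 235 TPM. TEK on day 0 was at 7.44 TPM in the second low purity well, below 8.69 to 8.91 TPM. PECAM1 on day 6 was at 2.97 TPM in the first high purity well, below 4.57 to 4.86 TPM.

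Both KDR and ESM1 had opposite differences on neighbouring days, with every high purity well on one side of every low purity well each time. The KDR log2 fold change, high minus low, was 1.62 on day 2 and -0.58 on day 4. For ESM1 it was -1.72 on day 4 and 1.13 on day 6. The difference between the days was not tested in either case.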

How the results depend on the processing

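All 33 calls of a member on a multi-omic day kept their direction and their side of the threshold without TMM scaling, with RLE size factors, with no filter, with a pseudocount of 0.1, with the well number as a replicate block and in edgeR on recovered reads, an alternative chosen after seeing the data. Their sizes depended on the scale: log2 fold changes of called members shifted by up to 2.77 with a pseudocount of 0.1 and up to 5.79 in edgeR on recovered reads, both for CD34 on day 16, listed at 0 in every low purity well, and on day 8 PLVAP, ESM1, CD34 and ERG went from 4.33, 4.18, 3.81 and 2.18 to 5.34, 5.65, 6.11 and 4.81 with the former. Without TMM scaling the median of all genes moved to -0.18 on day 8, -0.13 on day 13 and -0.12 on day 16 on the log2 scale. Of the pathway genes, edgeR on recovered reads called 2, 10 and 17 on days 0, 2 and 4, a pseudocount of 0.1 called 16 on day 4, and with no fold threshold 14, 23, 22, 36 and 39 were called on days 0, 2, 4, 13 and 16. The replicate block moved no count of calls by over 1.5 times. Leaving out a well gave 0 to 1 on day 0, 26 to 32 on day 6, 31 to 34 on day 8, 21 to 23 on day 13 and 22 to 25 on day 16, with 6 and 10 in every case on days 2 and 4. In the RNA-only experiment DESeq2 called 1 member at stage 2 and at stage 3, and 1 and 3 pathway genes at stages 3 and 4, where edgeR called 0. Leaving out a line gave 0 to 1 members at stage 3, the call being TEK at -2.20 without H9, and TEK was at -1.80 and -2.94 in DESeq2 at stages 2 and 3. Low counts limit ETV2 in the multi-omic wells and the late genes at stages 1 to 3.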
